A study of Mus musculus with 924 samples.

Results

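Pyramidal nuclei of the hippocampal fields CA1 and CA2/3 were compared with each other. There were 113 of them, 53 from CA1 and 60 from CA2/3, out of 216 nuclei of these dissections and 924 nuclei in the study. They were selected on measured values. A nucleus was kept with at least 3 of 6 pyramidal genes above 0 (Cpne7, Sv2b, Neurod6, Dkk3, Tenm4 and Khdrbs3), at most 1 of 4 granule cell genes above 0 (Prox1, C1ql2, Glis3 and Sema5a), and Gad2, a gene of inhibitory neurons, at 0. These 11 genes are therefore not results here. The same rule was applied to both regions.

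The study dissected regions of the mouse hippocampus, sorted single nuclei into plates and made a library from each by a modified Smart-seq2 protocol. Both groups used here came from C57BL/6 mice aged 12 weeks, with no other genotype or treatment in the labels. Each region had 2 preparations, numbered 1 and 3, and the preparation was the replicate. The labels do not say whether a number marks an animal. Each p-value therefore reflects spread among these preparations only, which may be technical, and limma shares that spread over genes.

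CA1 and CA3 pyramidal neurons are excitatory cells in series: granule cells send mossy fibres to CA3, CA3 axons called Schaffer collaterals reach CA1, and CA1 projects out of the hippocampus. CA2 is a small field between them, with markers and inputs of its own. The CA2/3 dissection holds both CA2 and CA3. A nucleus carries only nuclear RNA, so transcripts still being made or kept in the nucleus weigh more than in whole cells.

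CA1 preparation 1 gave 30 pyramidal nuclei, CA1 preparation 3 gave 23, CA2/3 preparation 1 gave 37 and CA2/3 preparation 3 gave 23. They were 50.8%, 57.5%, 66.1% and 37.7% of the nuclei in those preparations. At the edge of the rule, 9 of 18 nuclei with 3 pyramidal genes were kept and 0 of 28 with 2. With 1 granule gene 32 of 52 were kept, and with 2 granule genes 0 of 14. A gene was taken as detected above a value of 1, where a value is the deposited number turned back to its linear TPM-like scale. The median number of detected genes per nucleus was 6263.5 and 4977 in CA1 and 6216 and 5538 in CA2/3, in preparations 1 and 3. The regional difference of -256.75 genes gave an exact two-sided permutation p of 1, where 0.333 is the smallest that 2 preparations against 2 allow. Read depth is unknown. Preparation 3 of both regions held Ttr, the transthyretin transcript of choroid plexus. Its mean log2(value + 1) was 0 and 0.22 in CA1 1 and CA2/3 1, but 6.95 and 11.12 in CA1 3 and CA2/3 3. On the same choroid plexus and ependymal list, Enpp2 and Prlr were highest in CA2/3 3, at 5.17 and 4.16, and Kl in CA1 1, at 3.56. The whole list, Ttr included, had a mean summed log2 level of 6.09 and 8.10 in CA1 and 6.21 and 11.66 in CA2/3. Whether such RNA bears on the regional differences in number 3 was not tested.

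Promoters are shown for 5 genes that the comparison turns on, from RefSeq (GRCm38.p6), as 300 bases that end just past a gene start. Mpped1 and Ndst3 have more than 1 window, of which 1 is shown. It lies inside the gene's full span, and the data do not tell which start was used. Capitals mark CACGTG, an E-box bound by Bhlhe41 among other factors, and CAGATG or its reverse complement CATCTG, an E-box bound by Neurod factors. The first occurs in 7.15% and the second in 17.2% of 32851 promoters of this length. These are matches of letters, and a window without one says only that the letters are not there.
Mpped1 (chr15:83779773-83780072, plus strand): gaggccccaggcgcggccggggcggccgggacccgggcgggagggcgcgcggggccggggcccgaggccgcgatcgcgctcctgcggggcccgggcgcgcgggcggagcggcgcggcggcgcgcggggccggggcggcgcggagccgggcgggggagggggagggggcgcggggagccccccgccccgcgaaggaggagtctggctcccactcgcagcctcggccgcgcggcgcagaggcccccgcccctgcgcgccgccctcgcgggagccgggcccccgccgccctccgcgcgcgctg
Wfs1 (chr5:36988933-36989232, minus strand): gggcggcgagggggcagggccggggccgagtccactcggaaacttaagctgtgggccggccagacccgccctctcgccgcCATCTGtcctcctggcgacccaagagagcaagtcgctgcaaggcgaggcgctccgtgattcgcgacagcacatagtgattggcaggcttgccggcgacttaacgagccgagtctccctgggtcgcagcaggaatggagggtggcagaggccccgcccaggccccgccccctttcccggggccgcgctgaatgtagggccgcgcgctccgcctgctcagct
Bhlhe41 (chr6:145865371-145865670, minus strand): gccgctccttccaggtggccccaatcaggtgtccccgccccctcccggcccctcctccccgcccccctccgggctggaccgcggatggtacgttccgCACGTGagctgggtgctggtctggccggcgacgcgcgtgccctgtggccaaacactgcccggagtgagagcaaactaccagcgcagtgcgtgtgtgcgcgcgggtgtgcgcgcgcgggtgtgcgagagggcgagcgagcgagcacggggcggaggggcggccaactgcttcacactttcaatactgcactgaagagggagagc
Ndst3 (chr3:123672428-123672727, minus strand): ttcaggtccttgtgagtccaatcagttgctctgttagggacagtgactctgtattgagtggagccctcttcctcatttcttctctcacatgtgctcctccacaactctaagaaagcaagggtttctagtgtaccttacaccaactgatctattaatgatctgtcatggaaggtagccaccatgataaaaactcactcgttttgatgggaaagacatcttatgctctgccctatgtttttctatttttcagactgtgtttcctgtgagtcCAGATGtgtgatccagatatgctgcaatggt
Spock1 (chr13:57908283-57908582, minus strand): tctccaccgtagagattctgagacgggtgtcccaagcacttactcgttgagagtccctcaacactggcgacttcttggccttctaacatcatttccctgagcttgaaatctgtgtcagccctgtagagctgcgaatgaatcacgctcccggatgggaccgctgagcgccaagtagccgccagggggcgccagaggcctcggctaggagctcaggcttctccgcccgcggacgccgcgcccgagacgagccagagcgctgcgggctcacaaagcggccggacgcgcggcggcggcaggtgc

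Only Bhlhe41 held CACGTG among these, once, in a window with 70.7% G and C. Wfs1 and Ndst3 each held the second E-box once. G and C made up 89.3% of the Mpped1 window shown and 47.3% of its other window, and 43% of the Ndst3 window shown.

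The labels were checked against the markers of each field. Mpped1, a metallophosphoesterase domain gene used as a CA1 marker, was detected in 86.7% of nuclei of CA1 1 and 91.3% of CA1 3, against 29.7% of CA2/3 1 and 30.4% of CA2/3 3. Its mean log2(value + 1) was 9.33 and 9.22 in CA1 and 3.19 and 3.19 in CA2/3. The preparations of a region were nearly equal and the regions did not overlap. In the nuclei where Mpped1 was detected its mean level was 10.77 and 10.10 in CA1 and 10.73 and 10.47 in CA2/3, so the regions differed in how many nuclei held it and little in how much a positive nucleus held.

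Wfs1, which encodes the endoplasmic reticulum protein wolframin, had mean levels of 6.90 and 3.79 in CA1 and 1.97 and 2.56 in CA2/3. The CA1 preparations were both higher, but CA1 3 lay closer to CA2/3 than to CA1 1. Spock1, a secreted proteoglycan used as a CA3 marker, had means of 3.34 and 3.72 in CA1 and 7.30 and 5.69 in CA2/3. Pvrl3, the adhesion protein nectin-3, had 2.16 and 1.42 in CA1 and 5.77 and 4.46 in CA2/3. Both CA3 markers were higher in each CA2/3 preparation than in each CA1 preparation.

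**Figure D1:**
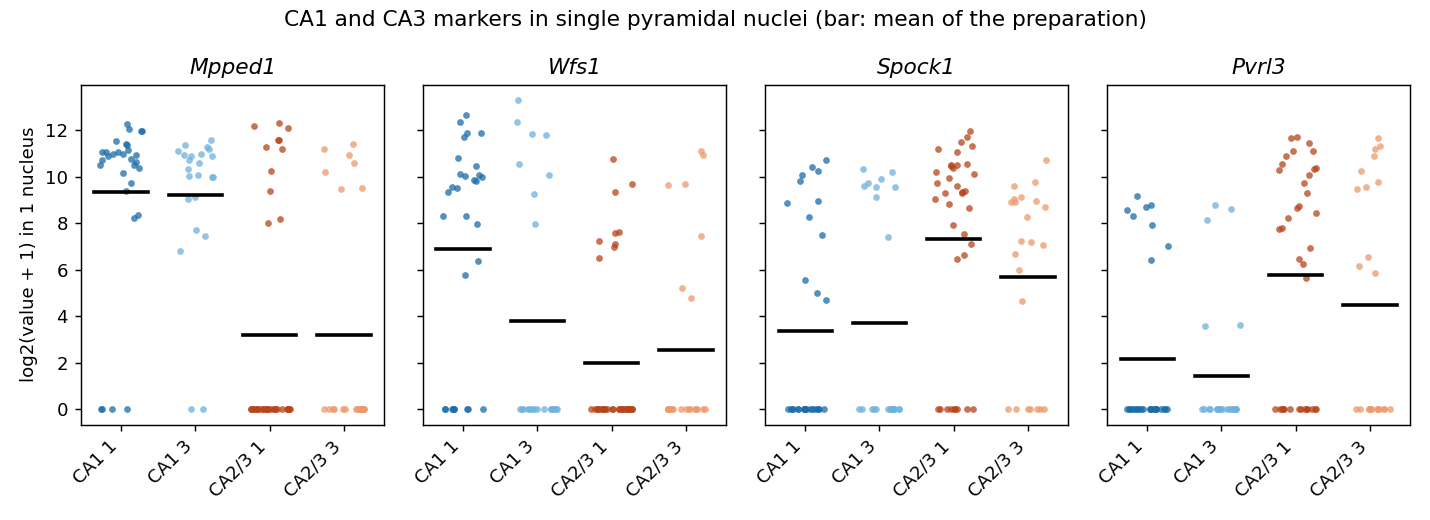
Each point is 1 pyramidal nucleus, the vertical axis is log2(value + 1), and the black bar is the mean over the nuclei of a preparation. Mpped1 is above 0 in most CA1 nuclei and in a minority of CA2/3 nuclei, and Wfs1, Spock1 and Pvrl3 divide the regions less cleanly.

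Single nuclei did not all follow the label of their dissection. Over the lists of 16 CA1 and 16 CA3 markers, 25 of 30 nuclei of CA1 1 (83.3%, 95% Wilson interval 66.4 to 92.7) and 17 of 23 of CA1 3 (73.9%, 53.5 to 87.5) held more CA1 than CA3 markers. The reverse held for 28 of 37 nuclei of CA2/3 1 (75.7%, 59.9 to 86.6) and 18 of 23 of CA2/3 3 (78.3%, 58.1 to 90.3). Intervals cover counting error only. In CA2/3, 9 of 37 and 4 of 23 nuclei held more CA1 markers, and in CA1, 3 of 30 and 3 of 23 held more CA3 markers. The regional differences are thus means over mixed sets of nuclei. Whether such nuclei came from across the border of the dissection was not tested.

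Every nucleus held at least 1 of the 4 markers Mpped1, Wfs1, Spock1 and Pvrl3. Counts of 0 without any of them allow shares of up to 10%, 13%, 8.11% and 13% in CA1 1, CA1 3, CA2/3 1 and CA2/3 3. A marker of each field was found together in 16 of 30 and 11 of 23 CA1 nuclei and in 9 of 37 and 5 of 23 CA2/3 nuclei. Spock1 alone was detected in 40% and 39.1% of CA1 nuclei.

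**Figure D2:**
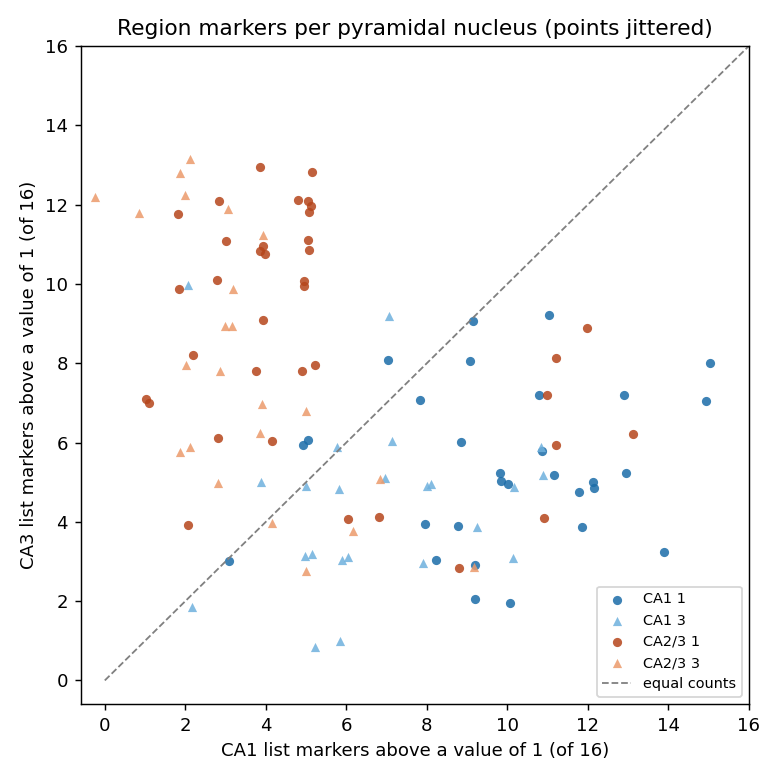
Each point is 1 pyramidal nucleus, with the number of detected CA1 list markers on the horizontal and CA3 list markers on the vertical axis, jittered. Most CA1 nuclei lie below the line of equal counts and most CA2/3 nuclei above it, with 9 nuclei of CA2/3 1 and 4 of CA2/3 3 below it.

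Of 16 CA1 markers, all tested, 9 were higher by at least 1 on the log2(value + 1) scale with both CA1 preparations above both CA2/3 preparations, and 0 were lower by this measure. Genes meeting it are called apart here. Over all 11336 tested genes 8.79% were apart and higher in CA1, and 8.48% apart and higher in CA2/3. Each count of genes apart below is to be set beside these shares. The median CA1 minus CA2/3 difference of the CA1 markers was 2.43, against 0.02 over all tested genes. Of 14 tested CA3 markers, 12 were apart and higher in CA2/3, with a median of -2.55. These lists were of known regional markers but were chosen with earlier results of these data known. Their direction is therefore a check of the labels that is not independent of the data.

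Nov, a secreted matricellular protein, was 4.80 and 5.14 in CA1 and 1.81 and 0.77 in CA2/3. Fibcd1, a chitin-binding membrane receptor, was 7.92 and 4.64 in CA1 and 4.46 and 2.63 in CA2/3. Crym, a thyroid hormone binding protein on the CA1 list, did not separate the fields, with 9.69 and 8.34 in CA1 and 9.88 and 7.66 in CA2/3. Tle4, a transcriptional corepressor, had the only negative difference of the list, -1.13, and its preparations overlapped.

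Among CA3 markers Bok, a gene of the Bcl-2 family, was 2.15 and 0.38 in CA1 and 8.29 and 3.38 in CA2/3. The 2 CA2/3 preparations thus differed widely for Bok, which was detected in 78.4% of nuclei of CA2/3 1 and 34.8% of CA2/3 3. Its difference of -4.57 was -2.12 without CA2/3 1 and -7.02 without CA2/3 3. Socs2, an inhibitor of cytokine signalling, was 4.65 and 4.11 in CA1 and 7.40 and 7.91 in CA2/3. Grik4, a high-affinity kainate receptor subunit of mossy fibre synapses, was 5.23 and 5.34 in CA1 and 8.54 and 7.69 in CA2/3. The last 2 were alike in the preparations of a region and did not overlap between regions.

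CA2 markers gave no common direction: of 8 tested, 2 were apart and higher in CA2/3 and 2 apart and higher in CA1, with a median of -0.51. Amigo2, an adhesion protein, was 0.29 and 1 in CA1 and 3.04 and 2.56 in CA2/3. Stard5, a lipid transfer protein, was the other that was higher in CA2/3, by 1.39. Rgs14, a regulator of G protein signalling, was 6.78 and 4.29 in CA1 and 4.23 and 3.08 in CA2/3, and the phosphatase gene Ptpn5 was 8.54 and 8.47 against 6.62 and 6.74. At least 2 of Amigo2, Rgs14 and Pcp4 were detected in 12 of 37 and 3 of 23 CA2/3 nuclei, against 5 of 30 and 2 of 23 CA1 nuclei.

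Across all 11336 tested genes, limma with no block called 0 genes (0.0%) at a Benjamini-Hochberg adjusted p under 0.05, with 470 at an unadjusted p under 0.05. The smallest adjusted p was 0.16, for Mpped1. With the preparation number as a block, limma called 53 genes, 28 higher in CA1 (0.247%) and 25 higher in CA2/3 (0.221%), and 1098 at an unadjusted p under 0.05. This pairing rests on the shared number alone, and the block left 1 residual degree of freedom among preparations. In limma each gene's spread is drawn toward a trend over all genes. That trend carried 13.7 degrees of freedom beside 2 residual without the block, and 26.96 beside 1 with it. The SE and p-values of a gene thus rest mostly on the spread of other genes. Of the 53, 51 were apart, the exceptions being Meg3 and Cck. Every adjusted p below is given as without and with the block.

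By median, the regional contrast within a number was smaller than the contrast between preparations of 1 region. Over tested genes the median absolute difference between regions within a number was 0.74, against 0.89 between the 2 CA1 and 0.85 between the 2 CA2/3 preparations. The values between preparations also hold any shift between numbers, which the regional value leaves out. Number 1 minus number 3 had a median of 0.56 in CA1 and 0.32 in CA2/3. Within number 1 the median regional difference over all genes was 0.12, and within number 3 it was -0.07.

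**Figure D3:**
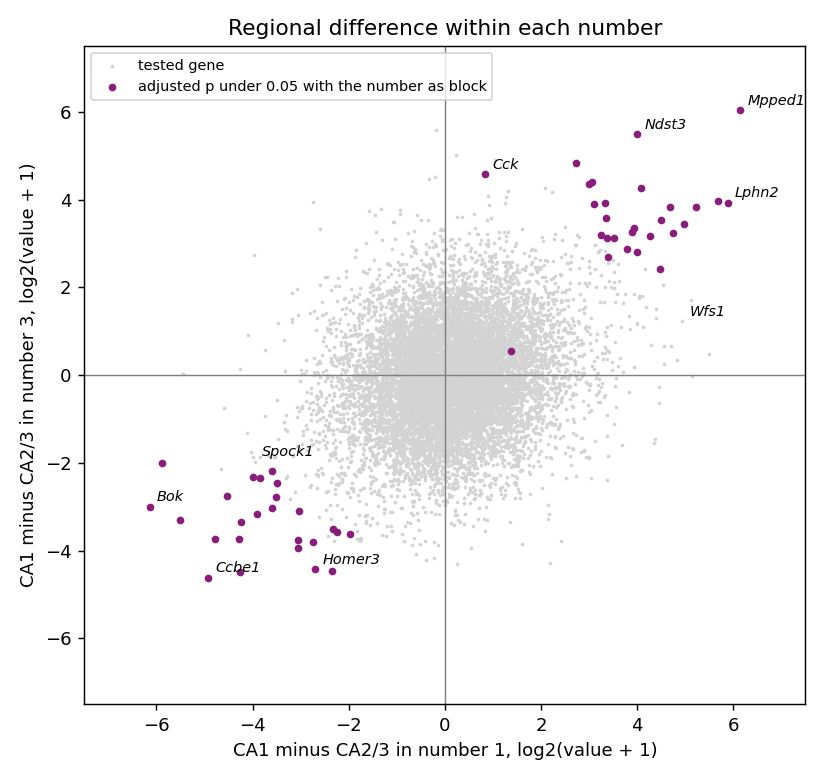
Each point is a tested gene, with its CA1 minus CA2/3 difference of mean log2(value + 1) in number 1 on the horizontal and in number 3 on the vertical axis. Genes that passed the threshold with the number as block, in purple, lie far out in the same direction in both numbers, apart from Cck and Meg3, which lie nearer to an axis.

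Mpped1 had the largest difference of any tested gene, 6.09 (SE 0.98, n = 2 preparations a region), with adjusted p of 0.16 and 9.23e-05. It was 6.15 in number 1 and 6.03 in number 3, and the gene lies at chr15:83779472-83858487 (GRCm38.p6). Without CA2/3 1 or without CA2/3 3, Mpped1 also passed with no block, with adjusted p of 0.00756 and 0.0315. Without CA1 1 or without CA1 3 it did not, with 1 and 0.663. Over all nuclei of the dissections, pyramidal or not, its difference was 3.72. Wfs1 differed by 3.08 (SE 1.08), with 4.93 in number 1 but 1.23 in number 3, and its adjusted p of 0.999 and 0.0997 passed neither way. Without CA1 1 the Wfs1 difference was 1.53. Spock1 differed by -2.96, with adjusted p of 0.999 and 0.0959. Pvrl3 differed by -3.32, with adjusted p of 0.686 and 0.0383.

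Cell adhesion and synapse-organizing genes contained the next largest difference. Lphn2, now named Adgrl2, encodes latrophilin-2, an adhesion receptor of the postsynaptic membrane that binds teneurins and FLRT proteins. The gene lies at chr3:148815586-148989096. Its levels were 7.07 and 5.70 in CA1 and 1.19 and 1.77 in CA2/3. The difference was 4.91 (SE 0.97), with adjusted p of 0.457 and 0.00435. Tenm3, a teneurin and latrophilin ligand, was 6.84 and 4.98 in CA1 and 2.94 and 1.72 in CA2/3, a difference of 3.58 with adjusted p of 0.686 and 0.0281.

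Of the 19 tested latrophilin, teneurin, FLRT, neurexin and neuroligin genes, 2 passed with the block, both higher in CA1. By the measure above 7 were apart and higher in CA1 and 0 higher in CA2/3, with a median of 0.41. Lphn3 and the leucine-rich repeat gene Lrrtm1 were among the 7, at 1.58 and 2.18. Of 17 nectin, contactin and other immunoglobulin adhesion genes, Cntn4 passed with the block. It was 4.27 and 5.22 in CA1 and 0.27 and 2.43 in CA2/3, with adjusted p of 0.686 and 0.0281. No gene of 18 cadherin and protocadherin genes passed, though Cdh9, a cadherin of mossy fibre to CA3 synapses, was 0.93 and 0.49 in CA1 and 3.39 and 3.16 in CA2/3.

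Axon guidance genes leaned to CA2/3. Of 26 tested semaphorin, plexin, ephrin, Slit and netrin genes, 0 passed in limma either way, while 6 were apart and higher in CA2/3 and 2 higher in CA1, with a median of -0.44. Unc5c, a netrin receptor, was 1.86 and 3.68 in CA1 and 6.53 and 5.83 in CA2/3, with adjusted p of 0.873 and 0.051. Slit2, a repellent ligand, was 3.01 and 4.65 in CA1 and 7.01 and 6.51 in CA2/3. Nrp2, a semaphorin receptor, was 4.14 and 3.54 against 5.76 and 6.73. Ntng1, which encodes netrin-G1, went its own way, with -0.19 in number 1 and 4.52 in number 3.

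Genes that modify heparan sulfate differed in both directions. Heparan sulfate chains on proteoglycans bind growth and guidance factors, and sulfotransferases set their pattern. Ndst3, which removes acetyl groups and adds N-sulfate, was 6.97 and 6.84 in CA1 and 2.96 and 1.36 in CA2/3. The difference was 4.75 (SE 1.01), with adjusted p of 0.463 and 0.00472. Hs6st3, a 6-O-sulfotransferase, was 6.05 and 5.52 in CA1 and 1.09 and 2.08 in CA2/3, with adjusted p of 0.508 and 0.00711.

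A second 6-O-sulfotransferase gene, Hs6st2, was 4.88 and 3.57 in CA1 and 1.37 and 0.44 in CA2/3, with adjusted p of 0.604 and 0.0275. Hs3st4, which adds 3-O-sulfate, was the opposite, with 2.59 and 0.70 in CA1 and 6.88 and 4.44 in CA2/3. Its difference was -4.01 (SE 1.06), with adjusted p of 0.623 and 0.00952. Over the 22 tested genes of this list, 3 passed with the block as higher in CA1 and 1 as higher in CA2/3. The median was 0.20, so the members lay on both sides: 5 were apart and higher in CA1, and 6 higher in CA2/3.

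Calcium-stimulated adenylyl cyclases were higher in CA1. Adcy1, which also stands on the granule cell list, was 8.30 and 6.44 in CA1 and 3.09 and 2.60 in CA2/3. The difference was 4.53 (SE 1.04), with adjusted p of 0.508 and 0.00711. Adcy8, the other cyclase switched on by calcium and calmodulin, was 4.68 and 4.65 in CA1 and 0.17 and 1.10 in CA2/3, and its difference of 4.02 (SE 0.83) had adjusted p of 0.463 and 0.00711. Adcy8 was detected in 1 of 37 and 3 of 23 CA2/3 nuclei, against 17 of 30 and 13 of 23 CA1 nuclei. Of the 13 tested genes of the cyclase and phosphodiesterase list, which holds Adcy8 but not Adcy1, 6 were apart and higher in CA1, 0 higher in CA2/3, and Adcy8 alone passed with the block.

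Potassium channel genes divided between the fields. Kcnh7, of the ERG family of voltage-gated channels, was 8.18 and 7.12 in CA1 and 2.50 and 3.16 in CA2/3. It lies at chr2:62693410-63184287. Its difference was 4.82 (SE 1.01), with adjusted p of 0.463 and 0.00472. Unlike Mpped1, Kcnh7 was also lower in the CA2/3 nuclei that held it: the mean level in positive nuclei was 8.77 and 8.18 in CA1 and 5.45 and 5.19 in CA2/3.

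Of 21 tested potassium channel genes 9 were apart and higher in CA1 and 5 higher in CA2/3, with a median of 0.46, and Kcnh7 alone passed with the block. Kcna1, of the Kv1.1 channel, was 5.65 and 4.61 in CA1 and 7.79 and 6.99 in CA2/3. The fast Kv3 genes Kcnc1 and Kcnc2 differed by -2.10 and -1.77, while Kcnc4 of the same family differed by 2.13.

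Of 18 sodium and calcium channel genes, 0 passed in limma with or without the block. Cacna1a and Cacna1c, the pore subunits of P/Q-type and L-type calcium channels, were higher in both CA2/3 preparations. Cacna1a was 5.91 and 6.00 in CA1 and 7.97 and 9.24 in CA2/3, and Cacna1c was 3.89 and 4.09 against 6.56 and 6.33. Cacna1g, a T-type channel gene, was 6.99 and 5.98 in CA1 and 4.16 and 5.17 in CA2/3.

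GABA-A receptor subunits leaned to CA1: of 11 tested, 7 were apart and higher in CA1 and 0 higher in CA2/3, with a median of 1.37. These subunits form the chloride channels of fast inhibition. Gabrb2, a beta subunit, was 8.98 and 7.48 in CA1 and 6.50 and 5.97 in CA2/3, and Gabra3, an alpha subunit, was 4.43 and 3.91 against 2.44 and 1.44. Their differences of 1.99 and 2.23 passed neither way, with adjusted p of 0.999 and 0.28 for Gabrb2 and 0.999 and 0.234 for Gabra3. Of the 11, 1 member that is not reported here passed with the block, and 0 passed without it. Gabra5, the alpha 5 subunit found outside synapses, overlapped between regions, with 8.98 and 5.88 in CA1 and 8.53 and 5.28 in CA2/3.

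Among 15 ionotropic glutamate receptor genes 0 passed in limma either way. Gria3 was 10.14 and 10.19 in CA1 and 8.79 and 8.94 in CA2/3, while the AMPA receptor subunit genes Gria1 and Gria2 differed by -0.33 and 0.23. Grin3a, an NMDA receptor subunit, was 3.66 and 4.26 against 2.52 and 2.21. Among 7 metabotropic receptors Grm2, which inhibits transmitter release, was 3.53 and 3.91 in CA1 and 0.28 and 0.71 in CA2/3. The Grm2 difference was 3.22 (SE 0.75), with adjusted p of 0.519 and 0.0275.

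Bhlhe41 and Zbtb20, regulators of transcription, lay on opposite sides. Bhlhe41, a repressor linked to the circadian clock, was 7.06 and 6.34 in CA1 and 2.38 and 2.50 in CA2/3, a difference of 4.26 (SE 0.98) with adjusted p of 0.508 and 0.00711. Zbtb20, a zinc finger repressor needed for the CA1 field to form, was 6.81 and 6.75 in CA1 and 10.39 and 8.94 in CA2/3, so this gene was higher in CA2/3, with adjusted p of 0.935 and 0.0281. With nuclei left out that held 2 or more oligodendrocyte genes, the Zbtb20 difference of -2.89 became -1.91 and no longer passed (adjusted p 0.519 with the block). Of 26 transcription factor genes, 8 were apart and higher in CA1, among them Meis2, Tox and Tshz2, and 4 higher in CA2/3. The median was 0.23, and over all tested genes the shares were 8.79% and 8.48%.

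**Figure D4:**
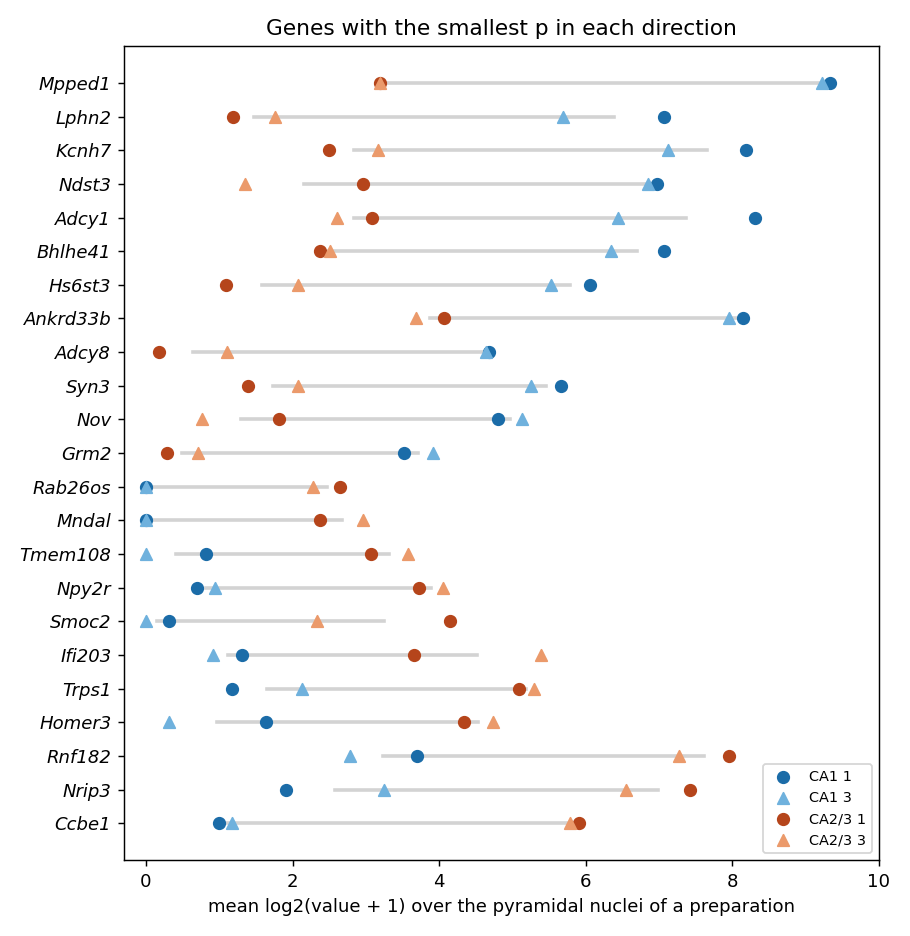
Each row is a gene, and points are the mean log2(value + 1) over the pyramidal nuclei of each of the 4 preparations, with a grey line between the region means. The rows come from the 12 genes in each direction with the smallest limma p among genes whose preparations did not overlap, and the gap between regions runs from 2.46 for Rab26os to 6.09 for Mpped1.

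Ankrd33b, Syn3 and Nov completed the 12 genes higher in CA1. Ankrd33b, an ankyrin repeat gene, was 8.14 and 7.96 in CA1 and 4.07 and 3.69 in CA2/3. Syn3, of the synaptic vesicle protein synapsin III, was 5.66 and 5.25 against 1.39 and 2.08. Nov has been described with the markers. All passed with the block, at adjusted p of 0.00711, 0.0223 and 0.0217, and none without it, at 0.557, 0.589 and 0.566.

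Genes higher in CA2/3 were led by Ccbe1, a secreted matrix protein known from lymphatic growth. The gene lies at chr18:66056855-66291838. It was 0.99 and 1.17 in CA1 and 5.91 and 5.79 in CA2/3, a difference of -4.77 (SE 0.90), with adjusted p of 0.414 and 0.00435. The preparations of each region were nearly equal, as for Mpped1. Ccbe1 was detected in 67.6% and 69.6% of CA2/3 nuclei and in 13.3% and 17.4% of CA1 nuclei.

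Rnf182, an E3 ubiquitin ligase, was 3.69 and 2.78 in CA1 and 7.95 and 7.27 in CA2/3. The Rnf182 difference of -4.37 (SE 1.01) had adjusted p of 0.508 and 0.00711. Nrip3, a nuclear receptor interacting protein, was 1.91 and 3.25 against 7.42 and 6.54, with adjusted p of 0.508 and 0.00711. Homer3, a postsynaptic scaffold that binds group I metabotropic receptors, was 1.63 and 0.31 in CA1 and 4.33 and 4.73 in CA2/3, with adjusted p of 0.566 and 0.0233. Trps1, a GATA-type repressor, was 1.17 and 2.13 against 5.08 and 5.29, with adjusted p of 0.604 and 0.0275.

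Secreted factors followed Ccbe1. Smoc2, a calcium-binding matricellular protein, was 0.31 and 0 in CA1 and 4.15 and 2.34 in CA2/3, with adjusted p of 0.589 and 0.0281. Of 21 tested genes on the matrix and secreted factor list 7 were apart and higher in CA2/3 and 1 in CA1, with a median of -0.54. Ccbe1 passed with the block, and so did Cpne4. Cpne4 counts among the 7 but encodes a copine, which is not a secreted or matrix protein. Cpne4 was 0.91 and 2.00 in CA1 and 6.80 and 4.00 in CA2/3. Fstl5, a follistatin-like protein, was 0.78 and 0.98 against 2.92 and 4.02.

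Of 13 tested neuropeptide, neurotrophin and receptor genes, 5 were apart and higher in CA1 and 1 higher in CA2/3, with a median of 0.97. Npy2r and Npy1r, of 1 receptor family, lay on opposite sides. Npy2r, the Y2 receptor of neuropeptide Y on nerve terminals, was 0.70 and 0.94 in CA1 and 3.73 and 4.05 in CA2/3, with adjusted p of 0.604 and 0.0383. Npy1r, the Y1 receptor, was 4.17 and 4.40 in CA1 and 2.50 and 1.96 in CA2/3, and passed neither way, at 0.999 and 0.3. Cck, the cholecystokinin gene, was abundant in 3 preparations, with 12.09 and 10.47 in CA1, 11.26 in CA2/3 1 and 5.89 in CA2/3 3. Its difference was 0.83 in number 1 and 4.58 in number 3, and its adjusted p was 0.999 and 0.0281.

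Ifi203 and Mndal belong to a family of interferon-inducible genes with similar sequences, so reads may have been split among members. Ifi203 was 1.31 and 0.92 in CA1 and 3.66 and 5.39 in CA2/3, with adjusted p of 0.623 and 0.0288. Mndal was listed at 0 in every CA1 nucleus and averaged 2.38 and 2.96 in CA2/3, with adjusted p of 0.571 and 0.051. Tmem108, a transmembrane protein gene, was 0.82 and 0 against 3.07 and 3.57, with adjusted p of 0.604 and 0.0459. Rab26os averaged 0 and 0 in CA1 and 2.65 and 2.28 in CA2/3. It is antisense to Rab26, a vesicle GTPase gene that was also higher in CA2/3 (6.05 and 8.02 against 9.57 and 10.80), and without strand their reads cannot be told apart.

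Oligodendrocyte genes were also found in these nuclei. Of 8 tested oligodendrocyte genes, 4 were apart and higher in CA2/3 and 0 in CA1. Mobp, a myelin protein gene, was 0.35 and 0 in CA1 and 2.56 and 1 in CA2/3. Cldn11, a claudin of myelin tight junctions, was listed at 0 in all CA1 nuclei and was 2.35 and 0.26 in CA2/3. St18, which is also on the CA3 list, was 0.88 and 0.88 against 2.85 and 2.86. A gene was tested if it met the detection filter in any preparation. Mobp, Cldn11 and Mog met it in CA2/3 1 alone, and St18 in the CA2/3 preparations alone. Such genes could hardly come out higher in CA1, so for them the filter largely set the direction of the count. Cldn11 was detected in 21.6% of nuclei of CA2/3 1 but only 4.35% of CA2/3 3. The mean summed log2 level of the whole list was 6.44 and 7.47 in CA1 and 10.29 and 7.79 in CA2/3.

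Mag, Mal and Opalin, markers of mature oligodendrocytes, were listed at 0 in all CA1 nuclei. In CA2/3 1, Mag was detected in 18.9% of nuclei, Mal in 18.9% and Mog in 21.6%. In CA2/3 3, Mag was detected in 4.35%, while Mal, Mog and Opalin were listed at 0. Other members of the list were common in CA1 too. Mbp, of myelin basic protein, was detected in 43.3% of nuclei of CA1 1, 60.9% of CA1 3, 59.5% of CA2/3 1 and 26.1% of CA2/3 3. Cnp, of a myelin enzyme, was detected in 23.3%, 26.1%, 32.4% and 17.4% in the same order. Neither separated the regions.

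Leaving out nuclei with 2 or more oligodendrocyte genes kept 21 and 18 CA1 and 11 and 13 CA2/3 nuclei, an alternative chosen after seeing the data. The differences were then 5.66 for Mpped1, 5.44 for Lphn2, -5.27 for Ccbe1, -4.80 for Bok and -4.40 for Rnf182, and each still passed with the block. That of Spock1 went from -2.96 to -1.15. With the block 27 genes passed, 16 of them among the 53, so the part of such RNA in the other calls was not tested.

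Slc1a2, the glutamate transporter of astrocytes, which CA3 neurons are also known to transcribe, was 6.28 and 5.50 in CA1 and 8.63 and 7.85 in CA2/3. Of 5 tested astrocyte markers 2 were apart and higher in CA2/3, Slc1a2 and Ntsr2, a neurotensin receptor gene. Ntsr2 was 3.88 and 0.77 in CA1 and 4.48 and 4.85 in CA2/3. Fgfr3, a growth factor receptor gene, was detected in 53.3% and 56.5% of CA1 nuclei and 64.9% and 65.2% of CA2/3 nuclei. Aqp4, the water channel of astrocyte endfeet, was detected in 10% and 4.35% of CA1 nuclei and 2.70% and 4.35% of CA2/3 nuclei. The astrocyte list summed to 8.13 and 8.78 in CA1 and 10.03 and 10.10 in CA2/3. The microglia list summed to 3.84 and 3.55 in CA1 and 2.29 and 2.43 in CA2/3.

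Neurons switch on immediate early genes with activity. Of 15 tested, 13 had a positive and 2 a negative difference, and 8 were apart and higher in CA1 and 0 higher in CA2/3, with a median of 1.26, and limma called 0 with or without the block. Egr1 was 6.96 and 4.08 in CA1 and 3.73 and 1.23 in CA2/3. Junb was 7.22 and 4.63 against 4.60 and 2.05, and Nr4a1 was 6.48 and 3.96 against 2.77 and 2.31. Each of these 3 was higher in number 1 than in number 3 of the same region, and Arc, with 6.93 and 2.98 in CA1 and 4.46 and 4.38 in CA2/3, overlapped.

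Several lists had a small median difference, against 0.02 over all tested genes. The 28 cytosolic ribosomal protein genes had a median of -0.01, and 1 of them, Rpl10, was apart. Calcium and calmodulin signalling genes had a median of 0.12 over 20 genes, with 2 apart and higher in CA1 and 0 higher in CA2/3. Monoamine and acetylcholine receptors had 0.29 over 13, with 3 apart and higher in CA1 and 1 higher in CA2/3. Over all tested genes the shares were 8.79% and 8.48%. The 7 tested nuclear and neuronal long noncoding RNAs had a median of 0.49, and 0 were apart. Of them Meg3 passed with the block, with adjusted p of 0.999 and 0.0131. It was 14.84 and 15.72 in CA1 and 13.47 and 15.17 in CA2/3. Meg3 overlapped between regions.

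**Figure D5:**
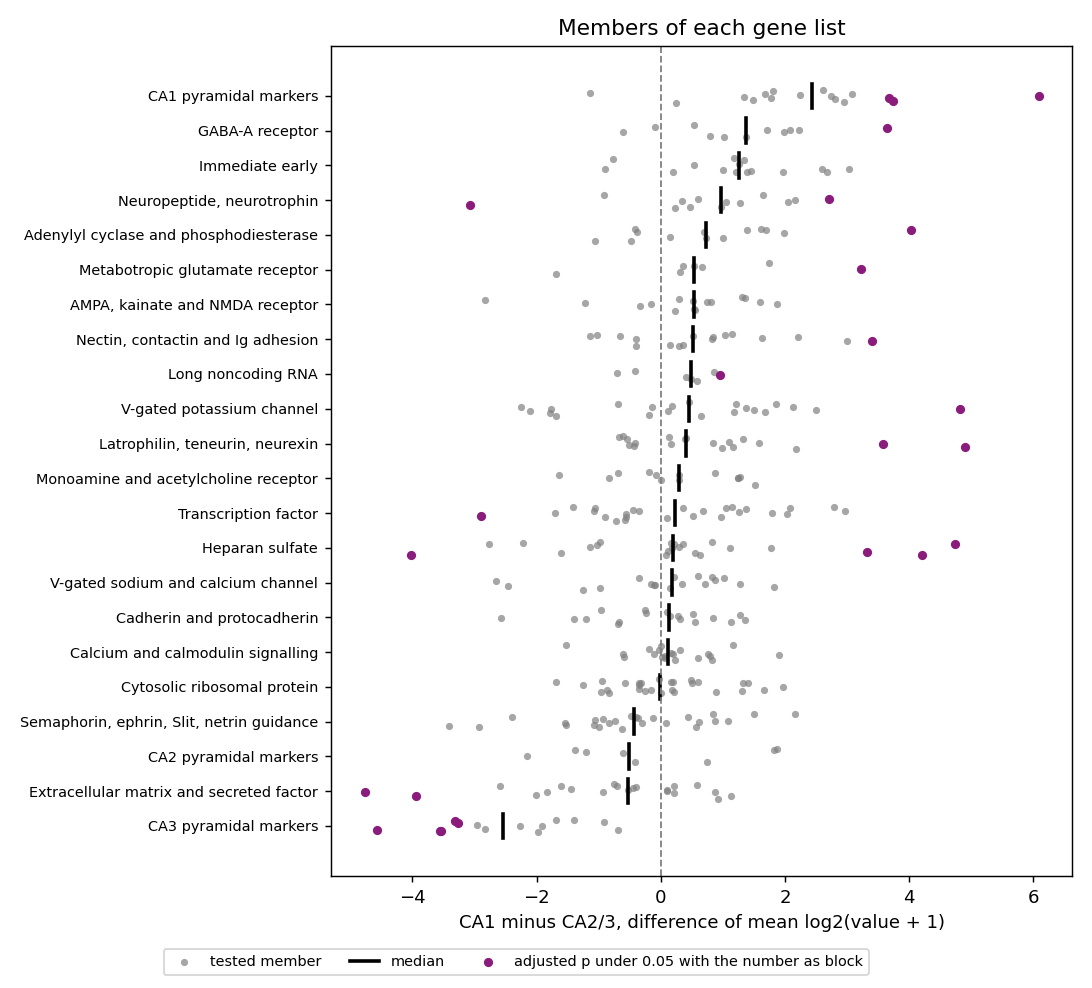
Each row is a gene list, points are the CA1 minus CA2/3 differences of its tested members in mean log2(value + 1), and the black bar is the median. CA1 markers lie highest, with a median of 2.43, CA3 markers lowest, with -2.55, and purple points passed with the number as block.

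Within preparations, the genes that followed Mpped1 from nucleus to nucleus most closely were Fibcd1 and Fbln2, a fibulin of the extracellular matrix, each with a mean Spearman rho of 0.51 over the 4 preparations. The next were 4930419G24Rik, Spon1 and Kcnk9, at 0.48, 0.45 and 0.45. The rho of Mpped1 with Fibcd1 was 0.48, 0.34, 0.74 and 0.47 in CA1 1, CA1 3, CA2/3 1 and CA2/3 3. Necab2, a calcium-binding protein gene on the CA2 list, followed Spock1 most closely, with a mean rho of 0.55, and then Wscd1, at 0.45. These correlations were picked as the highest of 9370 genes, and the nuclei of a preparation differ in depth.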

How the data were processed

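Single-nucleus RNA was sequenced, and per the submitters' processing notes the authors used Bowtie2 (version not given in the sources used here), RSEM 1.27 and mm10 (GRCm38). The deposited values are natural log values of a TPM-like value plus 1. The log base was checked on gaps between low values in 120 pairs of nuclei, of which 1436 fell within 0.02 of the natural log of 2 and 144 within 0.02 of 1. Totals were several times those of TPM, so a rescaled alternative was run. Of 924 columns, 403 were not used. No 2 CA nuclei were identical.

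Values were turned back to linear, and log2(value + 1), with a pseudocount of 1, was averaged over the pyramidal nuclei of each preparation. Differences are CA1 minus CA2/3 on that scale. They mix the share of nuclei at 0 with the level in the other nuclei, and are not fold changes of the mean value. For a gene at 0 in many nuclei they also depend on the pseudocount. A gene was tested if above a value of 1 in at least 20% of nuclei of 1 preparation. Tests used limma 3.58.1 with a variance trend in R 4.3.3, two-sided, Benjamini-Hochberg adjusted over 11336 of 25392 genes, and were tested on simulated data. The rest was computed in Python 3.11.15 with statsmodels 0.14.6, scipy 1.17.1, pandas 2.3.3, numpy 2.4.6 and matplotlib 3.10.9. The fit without a block is the main one. Preparations with the same number deviated together from their region means, with a correlation of 0.35 over genes.

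Named genes are the 12 per direction with the smallest p among genes whose preparations did not overlap, members of the CA1, CA2 and CA3 lists, up to 4 genes of each pathway list, and leading genes of other cell types. Rule genes, Ttr, unnamed and sex-linked genes were left out of the first group, and some genes are not reported here. Rab26, Gabra5, Kcnc1, Kcnc2, Gria1, Gria2, Arc and some glial markers were named after their values were seen. The selection rule of the nuclei and the lists were chosen with earlier results of these data known.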

Additional observations from a re-analysis of the deposited data

How the results depend on the processing

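Genes called numbered 0 without a block, also with a pseudocount of 10, TPM totals, the log2 of the mean value, a filter at 50% of nuclei, the stricter rule, all nuclei, nuclei with at least 4000 genes, or nuclei with oligodendrocyte genes left out. They numbered 1 with no filter (Mpped1), 3 with quantile normalization (Mpped1, Lphn2 and Ccbe1), 126 with detected genes as a covariate, 61 with granule nuclei of the dentate gyrus added and 59 with those and the replicate block. Leaving out 1 preparation gave 0 to 3: without CA2/3 1 they were Cck, Mpped1 and Ttr, and without CA2/3 3 Bok, Mpped1 and Smoc2. The lone preparation is there assumed to vary like the others.

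The replicate block gave 53 calls. Combined with it, settings chosen after seeing the data gave 27 (log2 of the mean value), 180 (pseudocount of 10), 170 (TPM totals), 26 (quantile normalization), 121 (no filter), 72 (filter at 50%), 74 (stricter rule), 45 (all nuclei), 136 (at least 4000 genes) and 27 (oligodendrocyte genes left out). All 53 stayed among the calls with a pseudocount of 10, TPM totals or no filter, and 12 with the log2 of the mean value.

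Genes apart numbered 1958, and 811 with a pseudocount of 10, 1259 with TPM totals, 1174 with a filter at 50%, 911 with all nuclei, and 3427 to 4097 with 1 preparation left out, where fewer preparations must separate. Of 109 named genes that were apart, 106 kept their direction in all 28 settings. The exceptions were Cacnb2 (-0.0181 with all nuclei), Dcn (-0.34 under the stricter rule) and Pcdh10 (-0.38 with the log2 of the mean value), with or without the block, and the cause was not tested. A block, a filter or added granule nuclei leave a gene's difference as it was, so settings that change only these could not reverse it. The genes were also picked as apart in these same nuclei, so the count of settings overstates how far direction was tried. Leaving out nuclei with 2 or more glial markers could not be run, since all CA2/3 pyramidal nuclei held them. Unknown read depth limits what a value of 0 in a nucleus can show.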
